A study of Bos taurus with 8 samples.

Results

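Nuclear-encoded oxidative phosphorylation subunits are the proteins that build the respiratory chain and ATP synthase of the mitochondrion from genes in the nucleus. Their transcripts were followed in bovine (Bos taurus) embryos at the 4-cell and 8-cell stages, with and without prime editing of RPL12, the gene of a large-subunit ribosomal protein. The set was chosen by symbol alone: genes beginning with NDUFA, NDUFB, NDUFC, NDUFS, NDUFV, UQCR or ATP5, or with COX followed by 4, 5, 6, 7 or 8, together with the 4 succinate dehydrogenase genes and CYCS, without the NDUFAF assembly factors. The table held 83 such genes of 16606 in all. CYC1, which the rule also names, was not analysed here.

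Oxidative phosphorylation passes electrons from NADH and succinate through complexes I and II to ubiquinone, then through complex III and cytochrome c to complex IV, where oxygen is reduced. The proton gradient formed on the way drives ATP synthase, also called complex V. Complexes I, III, IV and V combine nuclear-encoded subunits with a few encoded by mitochondrial DNA, whereas complex II and cytochrome c are wholly nuclear. In oocytes and cleavage embryos mitochondria are inherited from the egg, and oxidative phosphorylation is the main source of ATP.

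All embryos came from abattoir-derived oocytes that were matured and fertilised in vitro. Edited embryos received PEmax, a Cas9 nickase joined to a reverse transcriptase, with a guide RNA by injection into the zygote's cytoplasm, and the labels name the edit A148G without giving the origin of the numbering. Each of the 8 libraries pooled 5 embryos, and there were 2 libraries each of control 4-cell, edited 4-cell, control 8-cell and edited 8-cell embryos. Whether control embryos were also injected, which of the culture media they were kept in and what fraction of alleles carried the edit are not stated. The sample titles speak of base editing, and the 4-cell samples are labelled as oocytes in the cell type field. Nothing in the labels states that 2 libraries of a group came from separate fertilisations, so p-values measure the spread between these pools only.

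The libraries held 33527531 to 35122409 reads on genes, and the 2 libraries of a group correlated at 0.971 to 0.978 across the genes tested. RPL12 itself stood at 159 and 174 CPM (reads per 1000000) in the 4-cell control libraries and at 27.5 and 33.6 CPM in the edited ones, and at 96.3 and 97.6 against 14.1 and 11.9 CPM at the 8-cell stage. Of 20 oocyte markers 19 were in the table and none was at 0 in any library. They summed to 19774 and 25127 CPM in control against 43517 and 52281 CPM in edited 4-cell pools, and to 48138 and 36193 CPM against 50251 and 53582 CPM in 8-cell pools. Of the 19, 6 were called higher and 1 lower with editing in 4-cell embryos, and 2 higher and 0 lower in 8-cell embryos, by the limma test described below. Over all genes tested 18.9% were called higher and 25.8% lower in 4-cell embryos, and 1.08% and 14.5% in 8-cell embryos. The part of the oocyte markers in the read shares of the subunits was not tested. Markers of cumulus and granulosa cells, the somatic cells around the oocyte, were present too: the 30 listed summed to 5441 and 8099.6 CPM in control against 1849 and 2563 CPM in edited 4-cell pools, and to 3958 and 3814 CPM in control against 685 and 1286 CPM in edited 8-cell pools. A large part of these sums was LUM, at 2878 and 5965 CPM in control against 1282 and 1897 CPM in edited 4-cell pools. In 8-cell pools LUM stood at 3052 and 2449 CPM in control against 120 and 749 CPM in edited ones. LHCGR, FOXL2, NR5A1 and AMHR2 of that list were at 0 or under 1 CPM in every library, whereas VIM and HSD3B1 fell in edited embryos at both stages. Of the 25 cumulus and granulosa markers tested 18 were called lower and 2, HAS2 and GREM1, higher at the 4-cell stage. At the 8-cell stage 10 were called lower and 0 higher, beside the shares of all genes given above. The part of these markers in the results that follow was not tested separately from editing, since they moved with it.

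Together the 83 subunit transcripts made up 3.53% and 2.61% of all reads from control 4-cell pools, and 1.10% and 1.11% from edited ones. In 8-cell embryos they took 1.55% and 2.24% of the reads in control and 0.865% and 0.835% in edited libraries. Their summed level was thus 2.80 times higher in control than in edited embryos at the 4-cell stage (30807 ± 6741 against 10996 ± 54.9 CPM, SD, n = 2) and 2.23 times higher at the 8-cell stage (19044 ± 4859 against 8538 ± 187 CPM, SD, n = 2). Both edited libraries lay below both control libraries at each stage, and the 2 control libraries of a stage lay farther apart than the 2 edited ones. In pooled embryos a lower share of reads can come from fewer contributing cells, from less RNA per cell or from more of other transcripts, and these cannot be told apart.

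**Figure D1:**
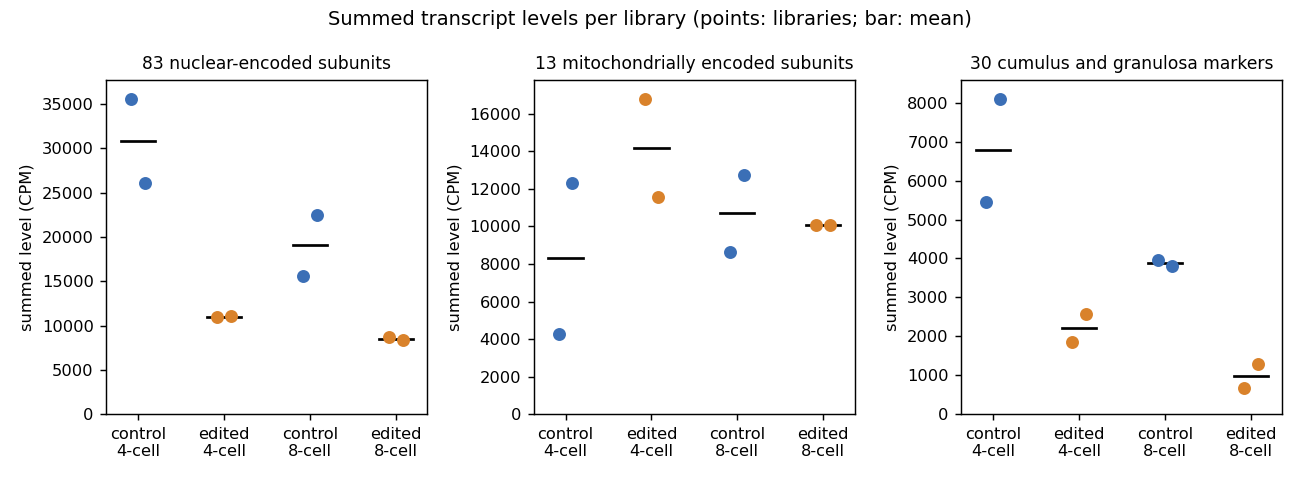
Summed levels in CPM (y axis, from 0) of the 83 nuclear-encoded subunits, the 13 mitochondrially encoded subunits and the 30 cumulus and granulosa markers in each library, by group (x axis); points are libraries and bars are means of 2. The nuclear-encoded sum lay at 26040 and 35573 CPM in the 4-cell control libraries and at 10957 and 11035 CPM in the edited ones, whereas the mitochondrially encoded sum did not show that order.

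Each transcript was then tested for a difference between edited and control embryos with limma on log2(CPM + 1), adjusted by the Benjamini-Hochberg method over the 12129 genes tested, and called at an adjusted p under 0.05. All 83 members reached the level needed for testing, a mean of at least 1 CPM. At the 4-cell stage 70 members fell and 1 rose, where 25.8% of all genes tested were called lower and 18.9% higher. At the 8-cell stage 65 fell and 0 rose, where 14.5% of all genes were called lower and 1.08% higher. The median log2 fold change of the members was -1.84 at the 4-cell stage and -1.57 at the 8-cell stage, beside -0.02 and 0.00 over all genes tested. Among the called members, 66 had a level at least 2-fold lower in edited pools for 4-cell embryos, and 57 for 8-cell embryos. These 2 counts are a description, with no share of all genes that met both conditions beside them. The groups did not overlap, with edited below control, for 74 members at the 4-cell stage (37.5% of all genes tested) and 77 at the 8-cell stage (32.7%). All 4 edited libraries lay below all 4 control libraries for 62 members (19.6% of all genes tested) and above them for 0 (9.98%).

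Of the members, 62 were called lower at both stages, 8 at the 4-cell stage and not the 8-cell stage, 3 at the 8-cell stage and not the 4-cell stage, and 9 at neither. COX7B2 was the member that rose. The shares of all genes given above are for single stages, and none for calls at both stages stands beside these counts. Averaged over the 2 stages 74 members fell and 0 rose, where 27.2% of all genes tested were called lower and 17.6% higher. The log2 fold changes at the 2 stages, which share no library, correlated at r = 0.79 over the 83 members. This correlation is a description, with no test and no value over all genes beside it. The calls depended on how the cumulus and granulosa markers were treated. The mean log2 level of those markers lay at 3.36 to 4.30 in control and at 2.41 to 2.98 in edited libraries. With it as a covariate, limma called 0 members at either stage. An unadjusted p under 0.05 was reached by 11 members in 4-cell and 5 in 8-cell embryos. These counts have no value over all genes beside them, so they are not read as a result about the members. In those fits 0 of all 12129 genes were called at either stage, so the loss of calls was not particular to the subunits. The covariate lay higher in every control than in every edited library, so such a fit cannot separate the markers from editing. The medians of the members under that covariate were -0.80 and -0.69.

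**Figure D2:**
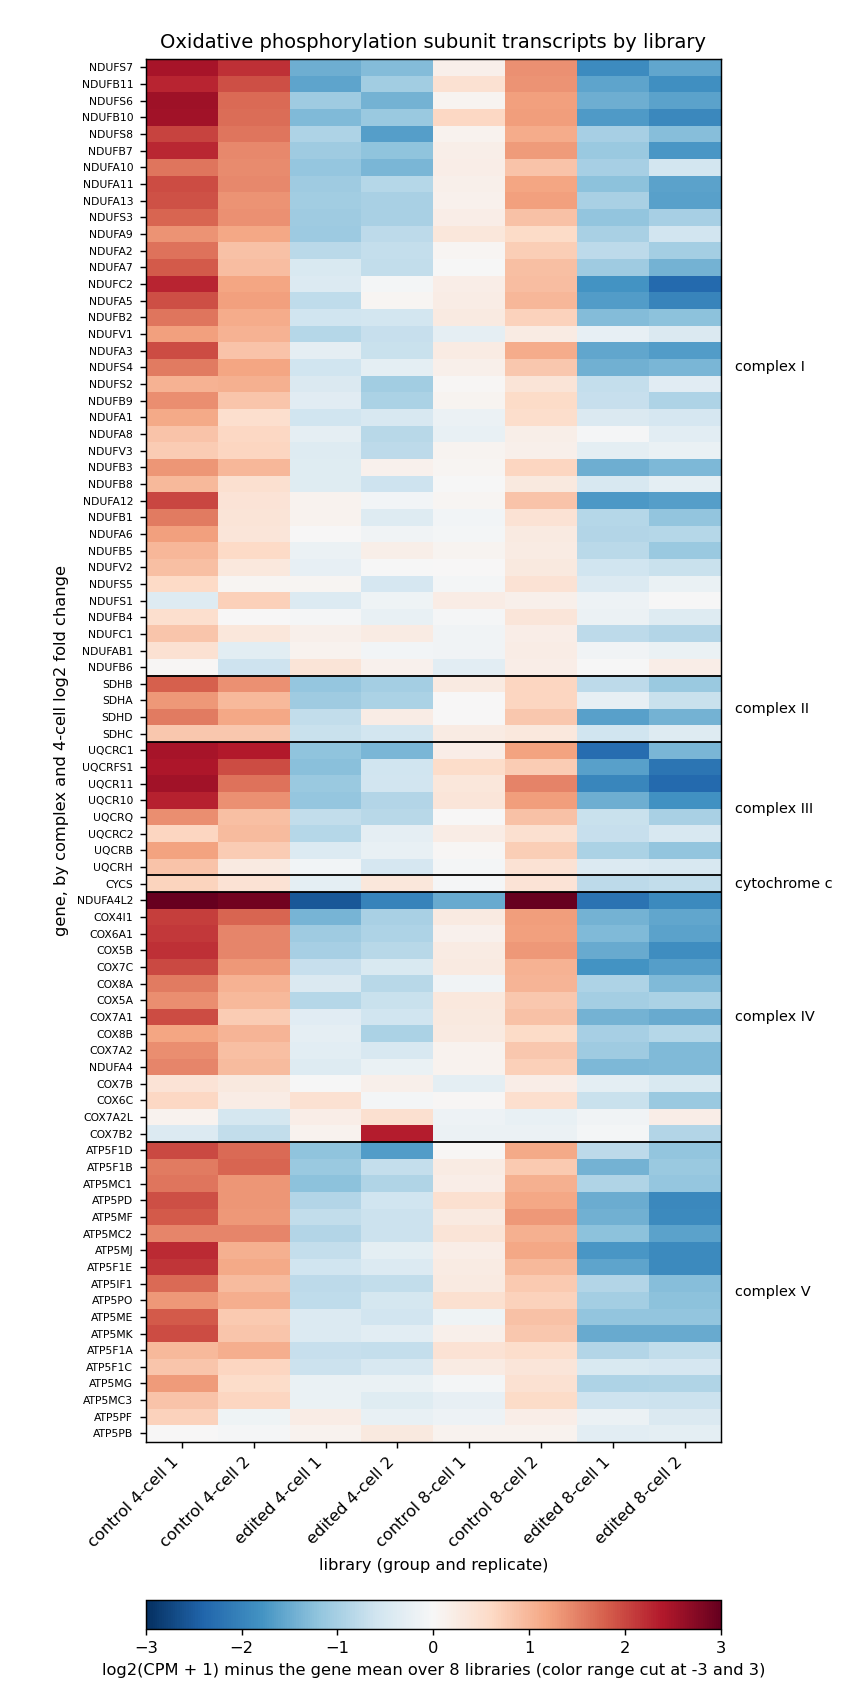
Level of each of the 83 subunit transcripts (rows, by complex and then by 4-cell log2 fold change) in each of the 8 libraries (columns), as log2(CPM + 1) minus the gene's mean over the 8 libraries, with colors limited to the range from -3 to 3. Most rows run from red in the 4-cell control libraries to blue in the edited libraries, with the 8-cell control libraries between them, and a few rows such as ATP5PB, COX7A2L and NDUFB6 are nearly even.

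Complex I oxidises NADH and has the most subunits. Of its 37 members 31 fell at the 4-cell stage and 26 at the 8-cell stage, with median log2 fold changes of -1.82 and -1.30. Its 7 core subunits, which hold the flavin and iron-sulfur clusters, gave 6 and 4 of these calls, and its 30 accessory subunits 25 and 22. NDUFB11, an accessory subunit of the membrane arm, stood at 392 and 306 CPM in the 4-cell control libraries and at 25.9 and 37.7 CPM in the edited ones (a log2 fold change of -3.43 with an SE of 0.296, limma adjusted p = 1.04e-06). In 8-cell embryos it stood at 109 and 203 CPM against 25.6 and 21.3 CPM (a log2 fold change of -2.62, limma adjusted p = 1.88e-05). The edited libraries of both stages were thus alike in level while the control libraries were not. NDUFB10, another membrane-arm subunit, stood at 376 and 211 CPM in control and 25.3 and 29.7 CPM in edited 4-cell libraries, and at 101 and 157 against 19.2 and 16.3 CPM at the 8-cell stage. Its log2 fold changes were -3.31 and -2.76 (limma adjusted p = 1.20e-06 and 1.31e-05). NDUFS7, the core subunit with the last iron-sulfur cluster before ubiquinone, had the largest fall within the complex at the 4-cell stage, from 198 and 165 CPM to 12.1 and 13.7 CPM (a log2 fold change of -3.71 with an SE of 0.342, limma adjusted p = 1.25e-06).

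Not every complex I transcript moved in this way. NDUFS1, the largest core subunit, stood at 90.7 and 198 CPM in control and at 90.3 and 109 CPM in edited 4-cell libraries, so the groups overlapped, with a log2 fold change of -0.43 (limma adjusted p = 0.25). At the 8-cell stage it stood at 140 and 134 against 107 and 119 CPM (a log2 fold change of -0.27, limma adjusted p = 0.599). NDUFAB1, the mitochondrial acyl carrier protein that also works in fatty acid synthesis, had log2 fold changes of -0.07 and -0.22 (limma adjusted p = 0.839 and 0.613). For the accessory subunit NDUFB6 the values were 162 and 103 CPM in control and 206 and 174 CPM in edited 4-cell libraries, a log2 fold change of 0.55 (limma adjusted p = 0.0948). NDUFB4 and NDUFS5, also accessory, were called at neither stage, with log2 fold changes between -0.55 and -0.39, although NDUFS5 fell in 4-cell embryos without the second control library (-0.82, limma adjusted p = 0.0243). The calls of NDUFS1 and NDUFB6 turned on 1 library: without the first 4-cell control library NDUFS1 fell (-0.99, limma adjusted p = 0.00562) and NDUFB6 rose (0.87, limma adjusted p = 0.0180), and NDUFB6 also rose under TMM and upper-quartile scaling. NDUFV1, which binds the flavin and takes electrons from NADH, was weakly detected: 6.20 and 5.31 CPM in control and 0.694 and 0.907 CPM in edited 4-cell libraries (a log2 fold change of -1.91, limma adjusted p = 0.000833).

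Complex II, succinate dehydrogenase, also works in the citric acid cycle. All 4 of its transcripts fell at the 4-cell stage and 3 at the 8-cell stage. SDHB, the iron-sulfur subunit, stood at 529 and 395 CPM in control and 67.7 and 74.8 CPM in edited 4-cell libraries (a log2 fold change of -2.67 with an SE of 0.237, limma adjusted p = 1.16e-06). At the 8-cell stage it stood at 182 and 237 against 87.5 and 69.8 CPM (a log2 fold change of -1.40, limma adjusted p = 0.000489). SDHA, the flavoprotein where succinate is oxidised, stood at 82.0 and 64.4 against 15.0 and 16.4 CPM at the 4-cell stage (a log2 fold change of -2.14, limma adjusted p = 3.89e-05), and at 32.6 and 51.5 against 27.2 and 19.9 CPM at the 8-cell stage (a log2 fold change of -0.79, limma adjusted p = 0.0909). The 8-cell groups of SDHA did not overlap, but the difference did not pass the threshold. The membrane anchors SDHC and SDHD fell at both stages. SDHC had log2 fold changes of -1.41 and -0.77 (limma adjusted p = 8.24e-05 and 0.0195) and SDHD of -1.62 and -1.94 (limma adjusted p = 0.000856 and 0.000477). Without the first 8-cell control library SDHA also fell at the 8-cell stage (-1.11, limma adjusted p = 0.0471). The 8-cell call of SDHC was lost without any 1 of the 4 libraries of that stage, at adjusted p-values from 0.0721 to 0.206, and with edgeR.

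Complex III takes electrons from ubiquinol to cytochrome c. All 8 of its members fell at the 4-cell stage and 7 at the 8-cell stage, with medians of -2.40 and -1.95. UQCRC1, a core protein on the matrix side, stood at 164 and 155 CPM in control and at 12.0 and 10.6 CPM in edited 4-cell libraries (a log2 fold change of -3.71 with an SE of 0.358, limma adjusted p = 1.59e-06). Its 8-cell values were 33.2 and 67.7 against 5.08 and 10.5 CPM (a log2 fold change of -2.53, limma adjusted p = 0.000106). UQCRFS1, the Rieske iron-sulfur protein, stood at 559 and 402 against 42.4 and 68.4 CPM at the 4-cell stage and at 150 and 175 against 32.5 and 21.8 CPM at the 8-cell stage. Its log2 fold changes were -3.11 and -2.56 (limma adjusted p = 1.20e-06 and 1.45e-05). UQCR11, a small accessory subunit, had one of -3.06 at the 8-cell stage, the largest fall within complex III there, from 72.1 and 162 CPM to 14.0 and 10.5 CPM (limma adjusted p = 2.89e-05). Cytochrome c, encoded by CYCS, which also acts in apoptosis when released from mitochondria, stood at 488 and 416 CPM in control and 247 and 384 CPM in edited 4-cell libraries (a log2 fold change of -0.54, limma adjusted p = 0.0807). It fell at the 8-cell stage, from 299 and 407 to 178 and 183 CPM (a log2 fold change of -0.95, limma adjusted p = 0.0123). That call was lost without the second 8-cell control library (-0.72, limma adjusted p = 0.166) or either 8-cell edited library (limma adjusted p = 0.0856 and 0.0722), and with edgeR; the 4-cell fall passed without the second edited library (-0.86, limma adjusted p = 0.0254).

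**Figure D3:**
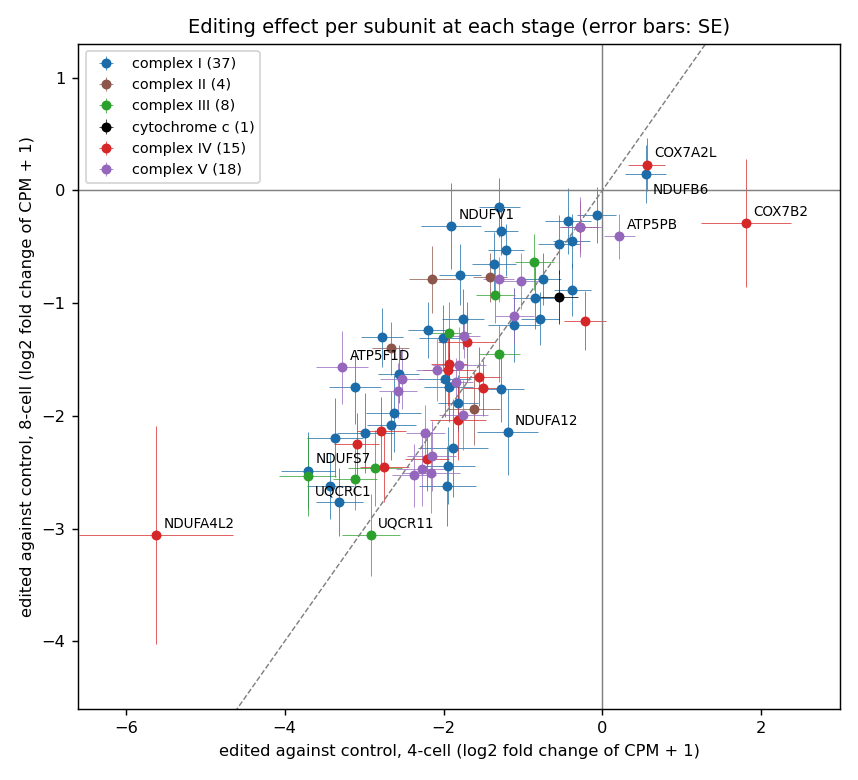
Log2 fold change of CPM + 1, edited against control, at the 4-cell stage (x axis) and the 8-cell stage (y axis) for each of the 83 members, colored by complex (number of members in the key), with error bars of 1 SE; the dashed line marks equal values and some members are labelled. Most points lie below 0 on both axes, NDUFA4L2 lies far to the left with wide error bars, and COX7B2 lies to the right of 0.

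Complex IV, cytochrome c oxidase, has subunits that exist as tissue-dependent paralogues. Of its 15 members 11 fell and 1 rose at the 4-cell stage, and 12 fell at the 8-cell stage. COX4I1, the ubiquitous form of subunit 4, stood at 984 and 776 CPM in control and at 88.0 and 118 CPM in edited 4-cell libraries (a log2 fold change of -3.09 with an SE of 0.284, limma adjusted p = 1.23e-06), and at 280 and 557 against 86.5 and 77.6 CPM at the 8-cell stage (a log2 fold change of -2.25, limma adjusted p = 4.09e-05). In the RefSeq annotation COX4I1 overlaps EMC8, a gene of an endoplasmic reticulum membrane complex, and reads from both cannot be told apart where the counting ignores strand. EMC8 had log2 fold changes of -0.25 and 0.32 (limma adjusted p = 0.480 and 0.486). COX5B stood at 1406 and 843 CPM in control and 153 and 171 CPM in edited 4-cell libraries, and COX6A1, the ubiquitous form of subunit 6A, at 1795 and 1138 against 196 and 219 CPM. Their log2 fold changes were -2.75 and -2.78 at the 4-cell stage and -2.45 and -2.14 at the 8-cell stage, with limma adjusted p-values of 0.000113 or smaller. COX7C fell by 2.21 and 2.38 on the log2 scale at the 2 stages (limma adjusted p = 1.72e-05 and 2.40e-05).

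The paralogues COX7A1 and COX7A2 both fell, as did COX8A and COX8B. COX7A2, the ubiquitous form, had log2 fold changes of -1.55 and -1.65 and COX7A1, the heart and muscle form, of -1.82 and -2.04, all 4 called. COX8A, the ubiquitous form, had log2 fold changes of -1.94 and -1.60 and COX8B, the muscle form, of -1.71 and -1.34, again all 4 called. In 8-cell embryos both COX8 calls were lost without the second control library (limma adjusted p = 0.0541 and 0.138), and that of COX8B also without either edited library (limma adjusted p = 0.0991 and 0.0610). COX4I2, COX6A2, COX6B1 and COX6B2 were not analysed here. NDUFA4, long counted in complex I and now placed in complex IV, stood at 640 and 447 against 175 and 201 CPM at the 4-cell stage and at 249 and 379 against 90.0 and 90.7 CPM at the 8-cell stage (respective log2 fold changes of -1.51 and -1.75, limma adjusted p = 0.000157 and 0.000102).

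NDUFA4L2, the hypoxia-inducible paralogue of NDUFA4, had the most uneven values of the set. It stood at 119 and 64.4 CPM in the 4-cell control libraries and at 0.492 and 1.17 CPM in the edited ones (a log2 fold change of -5.62 with an SE of 0.971, limma adjusted p = 0.000255). In the 8-cell control libraries it stood at 2.06 and 98.6 CPM, and in the edited ones at 0.897 and 1.32 CPM (a log2 fold change of -3.06 with an SE of 0.971, limma adjusted p = 0.0421). The first 8-cell control library was thus near the edited libraries and the second near the 4-cell controls, and without the second library the 8-cell value was -0.55 (limma adjusted p = 0.629). The 8-cell call was also lost without any 1 of the 4 edited libraries and under several other settings. It held in 8 of 19, leaving aside the marker covariate, under which the 8-cell value was 4.20. Of the 30 cumulus and granulosa markers, 22 were higher and 8 lower in the second than in the first 8-cell control library. Their sums there were 3814 and 3958 CPM, of which LUM alone made up 2449 and 3052 CPM. The mean log2 level of the markers, in which LUM weighs no more than the others, was 4.00 in the second and 3.36 in the first. The part of granulosa transcripts in the NDUFA4L2 values was not tested.

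COX7A2L, which joins complexes III and IV into supercomplexes, was not called at either stage. It stood at 579 and 379 CPM in control and 627 and 762 CPM in edited 4-cell libraries (a log2 fold change of 0.56, limma adjusted p = 0.0622), and at 490 and 465 against 506 and 619 CPM at the 8-cell stage (a log2 fold change of 0.23, limma adjusted p = 0.575). Without the first 4-cell control library it rose at the 4-cell stage (0.86, limma adjusted p = 0.00996), as it did under upper-quartile scaling. COX7B was called at neither stage either, with log2 fold changes of -0.28 and -0.33. COX7B2, the testis form, was the member called higher at the 4-cell stage (a log2 fold change of 1.81 with an SE of 0.567, limma adjusted p = 0.0162). It was at 10.2 CPM in the second 4-cell edited library and at 0.180 to 1.33 CPM in the other 7, and without that library the value was 0.68 (limma adjusted p = 0.302). The call was also lost without the second 4-cell control library (1.64, limma adjusted p = 0.0717).

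**Figure D4:**
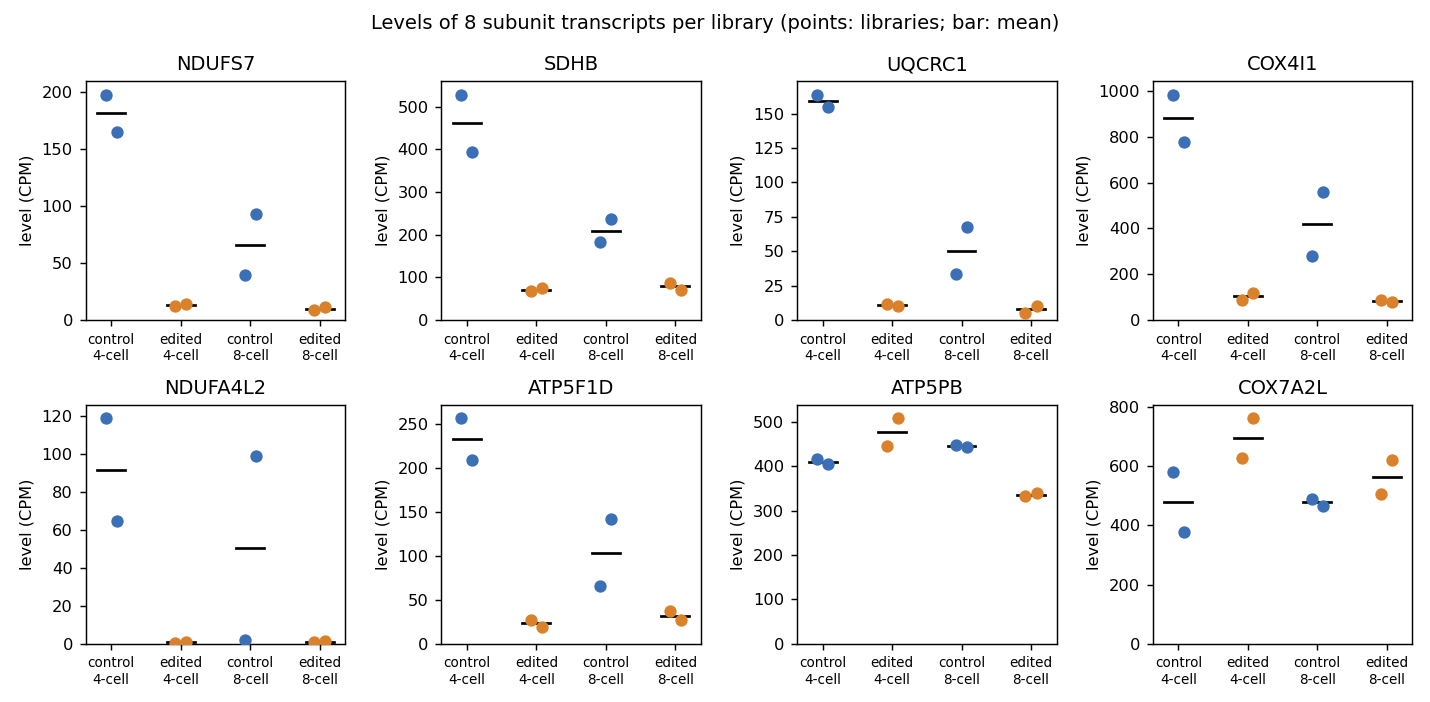
Level in CPM (y axes, from 0, each with its own range) of 8 subunit transcripts in each library, by group (x axis); points are libraries and bars are means of 2. NDUFS7, SDHB, UQCRC1, COX4I1 and ATP5F1D are lower in every edited library than in every control library, NDUFA4L2 is split between the 8-cell control libraries at 2.06 and 98.6 CPM, and ATP5PB and COX7A2L are not lower in the 4-cell edited libraries.

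ATP synthase, complex V, turns the proton gradient into ATP. Of its 18 members 16 fell at each stage, with medians of -1.96 and -1.63. All 5 subunits of the catalytic F1 head and its central stalk fell at both stages. ATP5F1B, the beta subunit that holds the catalytic sites, stood at 554 and 626 CPM in control and 85.9 and 112 CPM in edited 4-cell libraries (a log2 fold change of -2.57 with an SE of 0.242, limma adjusted p = 1.38e-06), and at 220 and 323 against 69.5 and 85.5 CPM at the 8-cell stage (a log2 fold change of -1.78, limma adjusted p = 8.01e-05). ATP5F1D, the delta subunit of the central stalk, stood at 257 and 210 against 27.2 and 19.5 CPM at the 4-cell stage and at 65.2 and 143 against 36.9 and 27.5 CPM at the 8-cell stage (respective log2 fold changes of -3.28 and -1.57, limma adjusted p = 1.89e-06 and 0.00265). Without the second 8-cell control library its 8-cell value was -1.01 (limma adjusted p = 0.0781).

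The proton-carrying c ring is built from 1 mature protein that 3 genes encode, each with its own import sequence. ATP5MC1 had log2 fold changes of -2.52 and -1.67, ATP5MC2 of -2.23 and -2.15 and ATP5MC3 of -1.02 and -0.80, and all 6 were called lower. In CPM, ATP5MC3 stood at 1045 and 911 in control and 509 and 455 in edited 4-cell libraries, and at 489 and 872 against 376 and 372 at the 8-cell stage, so its groups did not overlap. Leaving aside the marker covariate, under which its 8-cell value was 0.25, its 8-cell call held in 9 of 19 alternative settings. It was lost without any 1 edited library, without the second 8-cell control library (-0.39, limma adjusted p = 0.481), with edgeR, with no filter on low values, and under TMM, median-of-ratios and upper-quartile scaling. ATP5MC2 stood at 487 and 491 against 95.2 and 113 CPM at the 4-cell stage and at 231 and 374 against 74.8 and 57.4 CPM at the 8-cell stage. The inhibitor of ATP hydrolysis, ATP5IF1, fell too, with log2 fold changes of -2.08 and -1.59 (limma adjusted p = 2.27e-05 and 0.000533).

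The peripheral stalk, which holds the F1 head still, was split: 2 of its 4 members fell at both stages and 2 were called at neither. ATP5PD, the d subunit, had log2 fold changes of -2.37 and -2.53 (limma adjusted p = 8.26e-06 and 1.52e-05). ATP5PB, the b subunit, stood at 416 and 405 CPM in control and 446 and 508 CPM in edited 4-cell libraries (a log2 fold change of 0.21, limma adjusted p = 0.403), and at 448 and 445 against 333 and 340 CPM at the 8-cell stage (a log2 fold change of -0.41, limma adjusted p = 0.200). ATP5PF, coupling factor 6, ranged from 525 to 1154.5 CPM, with overlapping groups at the 4-cell stage and log2 fold changes of -0.28 and -0.32 (limma adjusted p = 0.426 and 0.479). Without the second 4-cell control library it fell at that stage (-0.69, limma adjusted p = 0.0383). It overlaps GABPA, the gene of a transcription factor of respiratory genes, in the RefSeq annotation. GABPA had log2 fold changes of -0.84 and -0.06 (limma adjusted p = 0.0239 and 0.920).

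The transcripts of the 13 subunits encoded by mitochondrial DNA did not share this pattern. At the 4-cell stage 11 of them rose in edited embryos and 0 fell, with a median log2 fold change of 1.44, and at the 8-cell stage 1 rose, with a median of 0.18. Over all genes tested 18.9% were called higher at the 4-cell stage and 1.08% at the 8-cell stage. ND1, a core subunit of complex I, stood at 182 and 400 CPM in control and 1033 and 660 CPM in edited 4-cell libraries (a log2 fold change of 1.61, limma adjusted p = 0.000986). ATP6, the subunit next to the c ring, stood at 432 and 838 against 2140.1 and 1248 CPM (a log2 fold change of 1.44, limma adjusted p = 0.00186). COX1 and COX3 were the 2 that did not pass at the 4-cell stage, with log2 fold changes of 0.31 and 0.82. In 8-cell embryos ND3 rose, from 36.5 and 80.9 to 155 and 137 CPM (a log2 fold change of 1.40, limma adjusted p = 0.0116), a call lost without the first 8-cell control or the first 8-cell edited library. The first 4-cell control library was low in these transcripts, with a sum of 4276 CPM against 12324 CPM in the second; without it 5 were called higher, with a median of 0.61. Without the first 4-cell edited library 2 were called, with a median of 1.15. In place of limma, edgeR called 6 higher, beside 2478 of 14629 genes, and DESeq2 7, beside 2451 of 16586 genes.

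The ratio of the summed nuclear-encoded to the summed mitochondrially encoded level was 8.32 and 2.11 in control against 0.653 and 0.952 in edited 4-cell pools. At the 8-cell stage it was 1.80 and 1.76 against 0.860 and 0.835. Every edited library was below every control library in this ratio. Within complex IV, the nuclear-encoded sum was 6986 ± 1918 CPM in control and 2200.2 ± 134 CPM in edited 4-cell embryos (SD, n = 2), while the sum of COX1, COX2 and COX3 was 5317 ± 3512 against 7264 ± 1642 CPM (SD, n = 2). In 8-cell embryos that sum went the other way, with 5456 and 7524 CPM in control against 4845 and 4727 CPM in edited pools, and the nuclear-encoded sum was 4045 ± 1452 against 1509 ± 0.455 CPM (SD, n = 2).

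Other genes of mitochondrial energy metabolism were taken from lists. Their counts stand beside 25.8% of all genes tested called lower and 18.9% higher at the 4-cell stage, and 14.5% and 1.08% at the 8-cell stage. Of 54 tested assembly factors, which build the complexes without being part of them, 28 fell and 5 rose at the 4-cell stage and 14 fell and 0 rose at the 8-cell stage, with medians of -0.82 and -0.51. Without the second 8-cell control library the 8-cell count was 8, with a median of -0.36. With the marker covariate 0 were called at either stage, with medians of -0.55 and -0.27. SDHAF2, which helps to attach the flavin of SDHA, stood at 341 and 292 CPM in control and 60.7 and 72.4 CPM in edited 4-cell libraries (a log2 fold change of -2.24, limma adjusted p = 2.87e-06). COA3, a complex IV assembly factor, fell by 2.32 on the log2 scale. NDUFAF2 and NDUFAF4, which act in complex I assembly, rose at that stage, NDUFAF2 from 64.3 and 53.2 to 166 and 150 CPM (a log2 fold change of 1.41, limma adjusted p = 0.000115) and NDUFAF4 from 123 and 136 to 253 and 262 CPM (a log2 fold change of 0.99, limma adjusted p = 0.00150). In 8-cell embryos TMEM126B, a complex I assembly factor, fell from 48.2 and 52.4 to 14.4 and 9.76 CPM (a log2 fold change of -1.99, limma adjusted p = 7.64e-05), and COX14 had a log2 fold change of -1.76 (limma adjusted p = 0.000154).

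Of 19 genes of the citric acid cycle and pyruvate dehydrogenase 10 fell and 1 rose at the 4-cell stage and 9 fell and 0 rose at the 8-cell stage, with medians of -0.80 and -0.58. IDH3B, a subunit of isocitrate dehydrogenase, stood at 193 and 194 CPM in control and 11.3 and 21.0 CPM in edited 4-cell libraries (a log2 fold change of -3.56, limma adjusted p = 1.04e-06) and changed by -2.58 in 8-cell embryos. MDH2, malate dehydrogenase, went from 523 and 476 to 62.1 and 62.5 CPM at the 4-cell stage (a log2 fold change of -2.98, limma adjusted p = 6.14e-07). CS, citrate synthase, was the gene that rose there, from 106 and 164 to 324 and 224 CPM (a log2 fold change of 1.03, limma adjusted p = 0.00463). PDHB fell by 2.50 on the log2 scale in 8-cell embryos. A last list joined regulators of mitochondrial biogenesis with transcription and replication factors of mitochondrial DNA. Of its 19 tested genes 3 fell and 6 rose at the 4-cell stage, and 2 fell and 0 rose at the 8-cell stage, with medians of 0.28 and 0.16. Among the biogenesis regulators PPARGC1A and GABPB1 rose at the 4-cell stage (0.96 and 0.97) and GABPA fell (-0.84). TFAM, which packages mitochondrial DNA and starts its transcription, fell at both stages (respective log2 fold changes of -1.10 and -1.46, limma adjusted p = 0.0202 and 0.00953), as did SSBP1, its single-strand binding protein (-1.07 and -1.05). TEFM, a transcription elongation factor, and POLG2, the accessory subunit of the DNA polymerase, rose at the 4-cell stage by 1.05 and 1.40 on the log2 scale.

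Stage was compared within each condition, as 8-cell against 4-cell embryos. In control embryos 19 members fell and 0 rose, where 9.02% of all genes tested were called, 6.27% lower and 2.75% higher, and the median log2 fold change was -0.80, beside 0.01 over all genes. The 4-cell control libraries enter both this comparison and that of edited with control 4-cell embryos. UQCRFS1 fell by 1.54 (SE 0.279, limma adjusted p = 0.0103), UQCRC1 by 1.73 (SE 0.358, limma adjusted p = 0.0152) and SDHB by 1.13 (SE 0.237, limma adjusted p = 0.0152) on the log2 scale. This count rested on single libraries: it was 0 without the first 4-cell or without the first 8-cell control library, 54 without the second 4-cell and 43 without the second 8-cell control library, and 10 without either 4-cell edited library. The calls over all genes moved with it, from 1094 to 13 and 25 without the first libraries and to 2114 and 1183 without the second ones. At an adjusted p under 0.05 edgeR called 0 members, beside 86 of 14629 genes, and DESeq2 called 45, beside 1629 of 16586 genes. In edgeR 57 members had an unadjusted p under 0.05, a count with no value over all genes beside it. Log2 fold changes were negative for 78 of the 83 members, and the groups did not overlap, with 8-cell below 4-cell, for 63 (30.8% of all genes tested).

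In edited embryos 14 members fell and 0 rose from the 4-cell to the 8-cell stage, where 5.18% of all genes were called, 3.73% lower and 1.45% higher, with a median log2 fold change of -0.44, beside -0.04 over all genes. NDUFC2, an accessory subunit of complex I, went from 28.8 and 36.9 to 10.3 and 6.86 CPM (a log2 fold change of -1.83 with an SE of 0.357, limma adjusted p = 0.0106). NDUFB3 went from 29.8 and 43.0 to 13.4 and 14.8 CPM and NDUFA12 from 94.2 and 83.4 to 26.0 and 27.2 CPM (respective log2 fold changes of -1.29 and -1.70, limma adjusted p = 0.0215 and 0.0216). NDUFS4, COX7C and ATP5F1E were the 3 members called lower between stages in both conditions, a count with no share of all genes beside it. The count in edited embryos was 0 without the second library of either edited group, 1 without the first 8-cell and 5 without the first 4-cell edited library, and 24 or 23 without a 4-cell control library. Over all genes 628 were called, and 7 and 146 without the second 4-cell or 8-cell edited library, 99 and 351 without the first 8-cell or 4-cell edited library, and 966 or 945 without a 4-cell control library. edgeR called 5 members, beside 324 of 14629 genes, and DESeq2 23, beside 1286 of 16586 genes. The groups did not overlap, with 8-cell below 4-cell, for 53 members (30.2% of all genes tested).

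**Figure D5:**
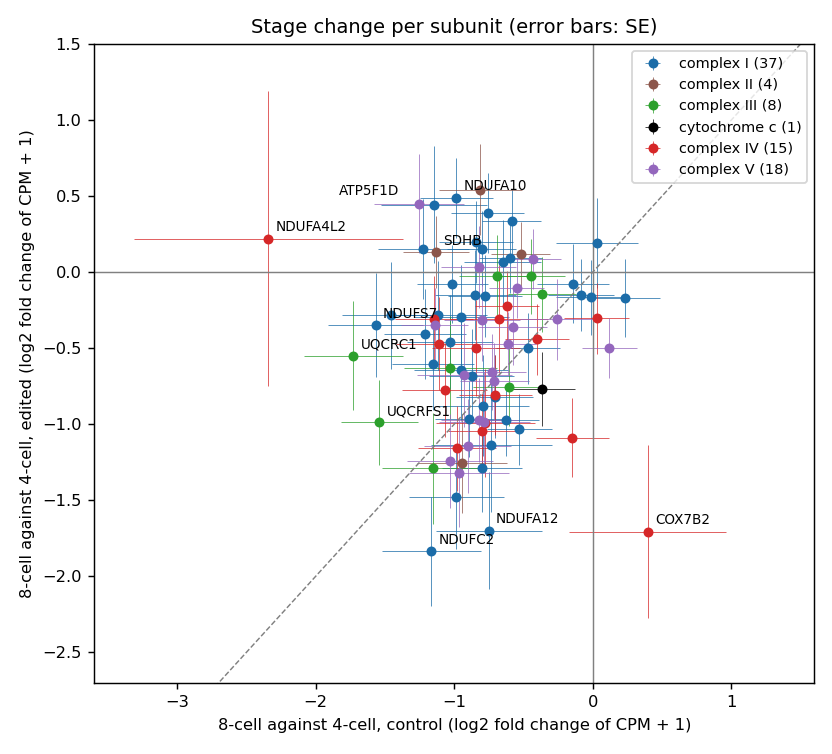
Log2 fold change of CPM + 1, 8-cell against 4-cell, in control embryos (x axis) and in edited embryos (y axis) for each of the 83 members, colored by complex (number of members in the key), with error bars of 1 SE; the dashed line marks equal values and some members are labelled. In control embryos 78 members lie below 0 and in edited embryos 66, and NDUFC2 and NDUFA12 lie low on the edited axis.

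The difference between the 2 stages in the gap between edited and control pools was tested directly. It passed for 3 members, NDUFA10, SDHB and ATP5F1D, where 3.96% of all genes tested were called, 1.95% of all in the positive direction, and all 3 had the smaller fall at the 8-cell stage. NDUFA10, an accessory subunit of complex I, stood at 284 and 248 against 40.7 and 35.1 CPM in control and edited 4-cell libraries and at 106 and 168 against 45.8 and 62.3 CPM at the 8-cell stage (difference 1.48, SE 0.371, limma adjusted p = 0.0393). The edited libraries of the 2 stages lay close together for this gene, and the control libraries did not. For the members as a whole the median difference was 0.25, beside -0.02 over all genes, with 49 positive and 34 negative. None of the 3 passed in edgeR, where 0 members were called, beside 18 of 14629 genes. There 14 members had an unadjusted p under 0.05, a count with no value over all genes beside it. Leaving out 1 library gave counts from 0 to 9: it was 7 without the second 4-cell control library, 9 without the second 8-cell control library and 0 without any of the other 6. Over all genes the count went from 480 to 1396 and 595 in the first 2 of these fits and to between 0 and 77 in the others.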

How the data were processed

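RNA was measured in 8 libraries of polyadenylated RNA amplified with a SMART-Seq kit and tagmented with Nextera XT, per the labels' protocols. Per the submitters' processing notes, the tools included Trim Galore 0.6.7, HISAT2 2.2.1 and featureCounts 2.0.1; the genome build, annotation, strand setting and filters are not given in the sources used here. The deposited values are CPM, although the table is named for raw counts: in each library 100% of the values above 0 came out as whole reads (tolerance 0.05 reads) once divided by what 1 read is worth. A count of 3 reads corresponds to 0.0858 to 0.0899 CPM. The lowest number of reads of a member in any library was 6, and 79 of the 83 had at least 100 in every library, so counting error is small; reads from amplified cDNA are not independent molecules. Another 4 columns match no sample given here and were not used.

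The main test was limma 3.58.1 (R 4.3.3) with the trend option of its variance moderation. It took log2(CPM + 1) of 12129 genes, those whose mean reached 1 CPM. It used 1 mean per group over all 8 libraries and 6 contrasts. The added 1 CPM understates the fold changes of weak genes. The procedure was tested on simulated data. edgeR 4.0.16 and DESeq2 1.42.0 on the recovered reads were alternatives, and edgeR called 5172 genes in 4-cell and 1695 in 8-cell embryos. Others changed the pseudocount, the filter, the scaling, the libraries fitted, a replicate block, a marker covariate, and each library in turn.

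The members, gene lists and tests were chosen with earlier results of these data known. Members were named by a rule: complex II, cytochrome c, the inhibitor and the paralogue sets always; for complexes I, III, IV and V the 2 called members per direction and stage with the smallest p; up to 6 called for the stage difference and up to 3 per direction between stages; and the 3 most abundant that were called at neither stage. NDUFS7, NDUFV1, NDUFS4, ATP5F1E and the other members called at neither stage were named after their values were seen. All 83 members matched the RefSeq gene table by symbol, and 12 of them overlap another tested gene there. Among these are NDUFA4L2 with SHMT2, COX8B with NBAS and NDUFB3 with HYCC2. Reads of subunit genes can also be shared with processed pseudogenes.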

Additional observations from a re-analysis of the deposited data

Results flagged for a closer look

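The gap between edited and control embryos was unequal at the 4-cell and 8-cell stages for 3 of 83 members by limma's test. A call of this kind was made for 3.96% of all genes tested, so the members were near that share. In edgeR 0 members were called. The difference of the log2 fold changes, 8-cell minus 4-cell, was 1.71 for ATP5F1D (SE 0.459, limma adjusted p = 0.0488), 1.48 for NDUFA10 (SE 0.371, limma adjusted p = 0.0393) and 1.27 for SDHB (SE 0.335, limma adjusted p = 0.0460). For each gene all 4 edited libraries lay below the lowest control library, as they did for 19.6% of all genes tested. That order does not measure a stage difference. Without the first 4-cell control library the 3 adjusted p-values were 0.128, 0.0955 and 0.131 in the same order.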

How the results depend on the processing

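The members called for editing in either direction, 71 in 4-cell embryos, 65 in 8-cell embryos and 74 averaged over stages, stayed within 1.5 times under every alternative except the marker covariate, which called 0, 0 and 0 members and 0 of all 12129 genes. Leaving out 1 library gave 67 to 72, 44 to 66 and 73 to 76 members in either direction; of those called lower in 4-cell embryos, 70 became 64 to 72. The stage difference, with 3 members, gave 1 with a pseudocount of 0.25 CPM, 6 with DESeq2, and 0 with edgeR, with TMM scaling, with no filter on low values and with the covariate; leaving out 1 library gave 0 to 9. The stage comparison in control embryos, with 19, gave 0 with edgeR, with no filter and with the covariate, 2 when only the libraries compared were fitted and 45 with DESeq2, and 0 to 54 without 1 library. In edited embryos, with 14, it gave 0 with no filter and with the covariate, 5 with edgeR, 8 with upper-quartile scaling, 23 with DESeq2 and 25 when only the libraries compared were fitted, and 0 to 24 without 1 library. The calls over all genes moved too. For the stage difference and the stage comparisons in control and edited embryos, limma gave 480, 1094 and 628 of them. DESeq2 gave 1065, 1629 and 1286, and edgeR 18, 86 and 324. The mitochondrially encoded transcripts called higher, tried under alternatives chosen after seeing the data, numbered 11 at the 4-cell stage and 5 with no filter, 6 with edgeR, 7 with DESeq2 and 0 with the covariate, and 2 to 13 without 1 library; the 1 called at the 8-cell stage became 0 with no filter and with the covariate, and 0 to 1 without 1 library. With the covariate their medians were 2.64 and 1.27, against 1.44 and 0.18. An unadjusted p under 0.05 was reached by 10 and 1 of 13, with no value over all genes beside these counts. Where a count fell to 0 the cause was not tested.

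With the covariate 9 values of named members changed sign, none of them called there. Of these 6 had been called without it: ATP5MC3 to 0.22 in 4-cell and 0.25 in 8-cell embryos, CYCS to 0.045 at the 8-cell stage, SDHD to 0.29 at the 4-cell stage, and NDUFA4L2 to 2.95 and 4.20. The other 3 had not: CYCS to 0.62 in 4-cell embryos, and COX7B2 to 1.40 and SDHA to 0.29 in 8-cell embryos. Upper-quartile scaling moved the median of all genes at the 8-cell stage from 0.00 to 0.17 and the calls over all genes there from 1764 lower and 131 higher to 1523 lower and 454 higher, while the members were at 56 lower and 0 higher there and at 68 lower and 3 higher at the 4-cell stage. Same-numbered libraries did not deviate together over all genes tested, with correlations from -0.30 to 0.11 between groups. Over the members the correlations ran from -0.31 to 0.31, and the numbers were not taken to pair the libraries. The library names carry the letter D for the second library of every group. The first libraries carry C in both edited groups and A or B in control. What the letters stand for is not stated, and a batch shared by letter was not tested. With the replicate number as a block 71 members were called at the 4-cell stage, 65 at the 8-cell stage, 74 averaged, 2 for the stage difference, 20 between stages in control and 15 in edited embryos.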
